A study of Homo sapiens with 7 samples.

Results

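The MYC and PVT1 locus was read as every non-control probe placed on chromosome 8 between 127.5 and 130.5 Mb (genome build hg19, a stretch of 3 Mb), together with every probe that the array annotation assigns to 4 genes, MYC, PVT1, FAM84B and GSDMC. These are 4 of the 24772 gene names on the larger array design and of 18965 on the array labelled 44k. On each of the 6 arrays of the larger design this gave 161 of 170182 probes on chromosomes 1 to 22, X and Y, 157 inside the stretch and 4 of GSDMC beyond its telomeric end. The array labelled 44k had 45 of 55015 probes. The probes were taken by position and gene name, although the genes and the stretch were chosen with earlier results of these data known.

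The study measured DNA replication timing, that is, whether a stretch of chromosome is copied early or late in S phase. Cells grew with bromodeoxyuridine (BrdU), a thymidine analogue, at 50 µM for 2 h, and 80000 fixed cells were sorted by DNA content into cells early and cells late in S phase. BrdU-carrying DNA from each fraction was captured with an antibody, amplified and put on the same array, early in the green channel (Cy3) and late in the red channel (Cy5). K562, a chronic myeloid leukaemia line, was on 3 arrays: the larger design after a new sorting method, the larger design after an old sorting method, and the array labelled 44k, whose sorting method the labels do not give. U2OS, an osteosarcoma line, was on 4 arrays of the larger design, 2 labelled manual and 2 labelled automated. The labels state no genetic change or treatment beyond the BrdU pulse, and nothing in the labels says that arrays of a line came from separate cultures, so the tests measure the spread between these arrays.

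Chromosomes are copied in a set order in which large, gene-rich and open domains tend to go first and gene deserts tend to go late, and the order differs between cell types. MYC, a transcription factor that drives growth and division, lies in a gene-poor stretch of the long arm of chromosome 8 beside PVT1, a long noncoding RNA gene. The surrounding deserts are known for long-range enhancers of MYC, and the locus is often gained in tumours.

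Timing is given as log2(early/late), centred so that 0 is the median probe of an array. Positive values are earlier than that median probe and negative values later. Seen from the centromere, the probes of FAM84B lay at chr8:127564662-127568423, those of MYC at chr8:128748859-128753273 and those of PVT1 at chr8:128815747-129098336. The probes of GSDMC lay at chr8:130764114-130798917. On the larger design MYC had 3 probes, PVT1 37, FAM84B 2 and GSDMC 4, and 65 of the 157 probes of the stretch carried no gene name. On the array labelled 44k PVT1 had 7 and GSDMC 2 probes. Median probe spacing was 16.4 kb on the larger design and 51.5 kb on the array labelled 44k. The deposited tables give a gene name per probe and do not say whether a probe lies in an exon or an intron.

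The arrays were not equally bright, which bears on the late channel of several arrays and on the early channel of the old-sorting K562 array. Across the genome, 95.8% and 96.4% of probes were well above background in red on the automated U2OS arrays, 40.2% to 76.2% on the other 4 arrays of the larger design and 8.82% on the array labelled 44k. There the scanner software had replaced the red value of 49.8% of all probes, and of 23 of the 45 locus probes, by a surrogate set at the background level. Only 2.22% of its locus probes were well above background in red. Late values on that array are therefore limits. In green the old-sorting K562 array was dimmest, with 44.7% of probes well above background against 73.0% to 93.5% on the others. Of its 161 locus probes, 13 had a surrogate in green and 10 in red, so early values there can be limits too. The arrays also differed in scale, with an SD of 250-kb window timing over the genome of 1.81 for new-sorting K562 and 1.17 to 1.43 for the others. Log2 differences between lines were not adjusted for this in the main fits. No slide held both lines, so slide and cell line cannot be told apart.

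PVT1 replicated early in both lines. Its mean timing was 1.29 on the new-sorting, 1.02 on the old-sorting and 1.26 on the 44k-labelled K562 array. The U2OS values were 1.60 (manual 1), 1.65 (manual 2), 1.60 (automated 1) and 1.52 (automated 2). All 4 U2OS arrays thus read higher than all 3 K562 arrays, 1.59 ± 0.05 (SD, n = 4) against 1.19 ± 0.15 (SD, n = 3). The difference of −0.41 (SE 0.27) did not pass in limma over all genes (adjusted p = 0.358), and non-overlapping lines were common, at 26% of all genes tested. Along PVT1, 36 or 37 of its 37 probes were above 0 on 5 arrays of the larger design and 7 of 7 on the array labelled 44k. On the old-sorting array the deposited ratio of 5 PVT1 probes was set to 0. Of the other 32 probes there 31 were above 0, with a mean of 1.16. The median PVT1 probe read 1.12 to 1.28 in K562 on the larger design, 1.09 on the array labelled 44k and 1.49 to 1.66 in U2OS.

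MYC was early in U2OS and uneven among the K562 arrays. Manual U2OS arrays gave 1.05 and 1.60, automated arrays 1.51 and 1.03. K562 gave 1.71 with new sorting, −0.09 with old sorting and 0.65 on the array labelled 44k. The new-sorting array thus read above every U2OS array and the old-sorting array below 0, and the lines overlapped. K562 averaged 0.75 ± 0.90 (SD, n = 3) and U2OS 1.30 ± 0.30 (SD, n = 4), and the difference of −0.55 (SE 0.42) did not pass (limma adjusted p = 0.429). It was −1.02 without the new-sorting array, −0.12 without the old-sorting array and −0.27 with normexp. The low value of the old-sorting array came with a first MYC probe at −1.30 there, while the other 2 read 0.68 and 0.33. The same first probe was below 0 on the array labelled 44k (−0.31) and on the manual 1 U2OS array (−0.44).

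FAM84B, which current annotation calls LRATD2 and which encodes a protein with an LRAT-like domain, was late in K562. It read −2.73 with new sorting, −2.46 with old sorting and −1.23 on the array labelled 44k. That last value averages a probe at −1.99 with one whose deposited ratio was set to 0. Manual U2OS arrays read −1.17 and −1.66 but automated ones 0.09 and −0.05, so the line split by handling. The difference of −1.44 (SE 0.51, limma adjusted p = 0.0870) did not pass. It passed at −1.76 both without the manual 2 array (limma adjusted p = 0.0414) and without probes whose ratio was set to 0 (limma adjusted p = 0.0213). It shrank to −0.96 with a normexp background correction (limma adjusted p = 0.0456) and to −0.55 without background correction (limma adjusted p = 0.220). The split in U2OS came from the second of its 2 probes, which was at −1.93 and −1.67 in the manual pair and at 1.86 and 1.03 in the automated pair. The first probe was below 0 on all 7 arrays, from −3.04 to −0.41.

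GSDMC encodes a gasdermin, a member of a family of membrane pore-forming proteins, and was early on all 7 arrays. It read 2.09, 1.72 and 1.78 in K562, in the order new sorting, old sorting and labelled 44k. Manual U2OS arrays read 0.87 and 1.77, automated ones 1.12 and 1.02. Of the U2OS arrays, manual 2 lay inside the K562 range and the other 3 below it. The difference of 0.67 (SE 0.32) did not pass (limma adjusted p = 0.194), and it was 0.38 with loess, 0.34 with normexp and 0.24 without background correction.

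Calls on timing needed a limma adjusted p under 0.05 over all genes together with a difference of 1 or more. Of the 4 genes 0 met this, against 15% of 15644 genes. At an unadjusted limma p under 0.05 the count was 1, FAM84B, against 28.5% of all genes. The median difference of the 4 genes was −0.48, against −0.18 over all genes. Ordered by mean level, K562 ran GSDMC, PVT1, MYC and FAM84B and U2OS ran PVT1, MYC, GSDMC and FAM84B. In K562 the arrays overlapped between MYC and PVT1, and GSDMC lay above PVT1 on all 3. In U2OS MYC overlapped with both PVT1 and GSDMC. FAM84B lay below the other 3 on every array of both lines. The plot of the 4 genes by array shows the tight cluster at PVT1 beside the scatter at MYC and FAM84B.

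**Figure D1:**
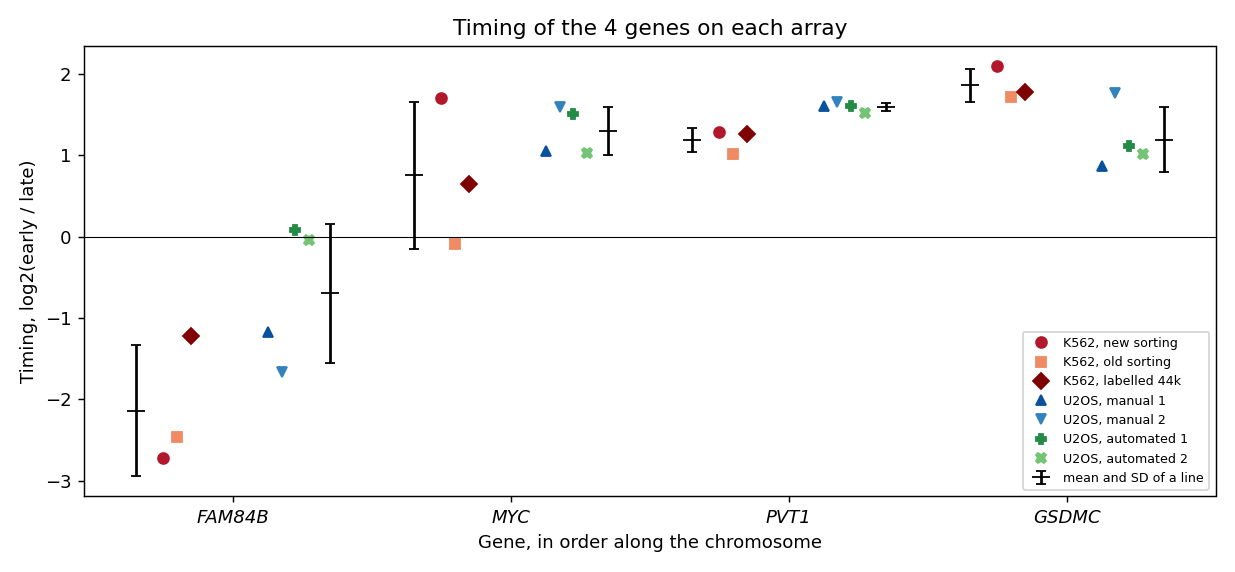
Timing, log2(early/late), of FAM84B, MYC, PVT1 and GSDMC on each of the 7 arrays. Each symbol is the mean of a gene's probes on 1 array, and the bars give the mean and SD of the 3 K562 or 4 U2OS arrays. PVT1 is above 1 on every array, FAM84B is below −1 on every K562 array, and MYC in K562 runs from −0.09 to 1.71.

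The profile in windows of 100 kb on the 6 arrays of the larger design put MYC and PVT1 on an early plateau, with late windows on its centromeric side in both lines. Of 30 windows, 25 had at least 3 probes on each array. In K562 a run of tested windows above 0 began at 128.4 Mb with new sorting and 128.3 Mb with old sorting, and ended at 129.5 Mb on both arrays. In U2OS the run began at 128.1 Mb on both manual arrays and 128.4 Mb on both automated ones. It ended at 129.6 Mb on 3 arrays and at 129.9 Mb on automated 1. The windows at 128.6 to 128.7 Mb and 129.6 to 129.7 Mb had too few probes to test. Every run passes over the first, and that of automated 1 also over the second. The end at 129.6 Mb is therefore the start of an untested window. The MYC to PVT1 interval lay inside the run on all 6 arrays.

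The highest and the lowest windows of the profile differed in place between the lines and also between arrays of a line. Several of them held 3 probes, the minimum: those at 129.3 to 129.4, 128.5 to 128.6 and 127.6 to 127.7 Mb. At 129.3 to 129.4 Mb the difference between the lines did not pass (−0.83, SE 0.48, limma adjusted p = 0.278). With new sorting K562 peaked at 1.76 at 129.1 to 129.2 Mb, telomeric of PVT1, and was lowest, at −2.80, just before 128.1 Mb. With old sorting it peaked at 1.61 at 128.5 to 128.6 Mb and was lowest, at −2.16, at 127.5 to 127.6 Mb, the FAM84B window. Of the U2OS arrays, 3 peaked at 129.3 to 129.4 Mb, reaching 2.88 on manual 1, 2.20 on manual 2 and 1.92 on automated 1. Automated 2 peaked at 1.61 in chr8:128900001-129000000, within PVT1. The lowest U2OS window was 130.2 to 130.3 Mb on 3 arrays, at −2.01 on manual 1, −1.71 on automated 1 and −1.45 on automated 2. On manual 2 it was 127.6 to 127.7 Mb, at −1.06. By rank the −2.80 of new sorting stood at percentile 18.7 of its array and the −2.01 of manual 1 at percentile 9.58. K562 was thus lowest on the centromeric side of MYC on both arrays, and U2OS on the telomeric side on 3 of 4.

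**Figure D2:**
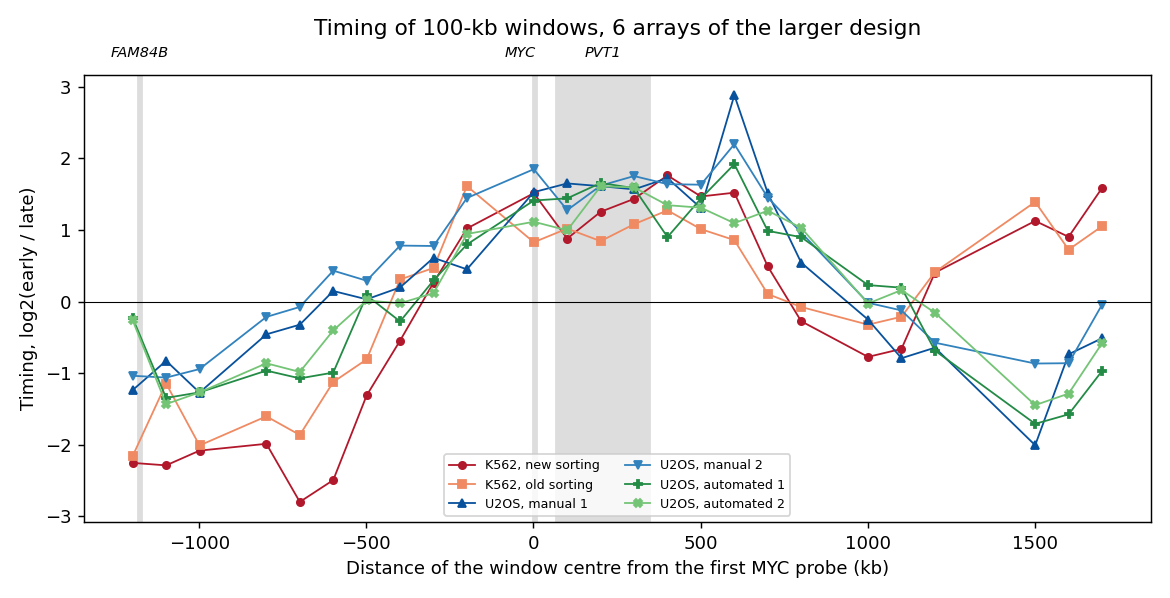
Timing of 100-kb windows, log2(early/late), against the distance of the window centre from the first MYC probe in kb, for 2 K562 and 4 U2OS arrays. Grey bands mark the probes of FAM84B, MYC and PVT1, and lines join tested windows across the 5 windows with too few probes. All 6 arrays are above 0 over MYC and PVT1, and in the 3 windows at the right end both K562 arrays are above 0 and all 4 U2OS arrays below.

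On the telomeric edge the lines had opposite timing. At 130.25 to 130.5 Mb, the last 250-kb window and the only one of the far telomeric side with at least 3 probes on all 7 arrays, K562 read 1.26 with new sorting, 1.03 with old sorting and 0.97 on the array labelled 44k. Manual U2OS arrays read −0.85 and −0.46, automated ones −1.29 and −0.999. Every K562 array was early there and every U2OS array late. The difference was 1.99 (SE 0.24, limma adjusted p = 0.000279 over 8913 windows). It was 1.17 to 2.21 under the 21 other settings run for it, with limma adjusted p from 2.23e-05 to 0.00588.

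This was the only 1 of the 7 testable windows of 250 kb to pass, against 23.3% of windows across the genome, and 10.9% earlier in K562. It was also the only one in which the lines did not overlap, against 38.5% of windows genome-wide. The other 6 windows had differences of −1.14 to −0.29, all later in K562 and none past the threshold. Among them the window at 127.5 to 127.75 Mb gave −0.82 (limma adjusted p = 0.0725) and the one ending at 128.25 Mb gave −1.14 (limma adjusted p = 0.0608). The count rested on the array labelled 44k. Without it, all 12 windows could be tested and 6 passed, against 20.3% of windows genome-wide. Of the 6, 2 were earlier in K562 (genome-wide 8.72%) and 4 later (11.6%).

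Those 6 windows without the array labelled 44k lay at both ends of the stretch. The 3 centromeric windows from 127.5 to 128.25 Mb were later in K562, with differences of −1.18, −1.15 and −1.58 (SE 0.25, 0.29 and 0.39; limma adjusted p = 0.0149, 0.0309 and 0.0265). In the third of them K562 read −2.38 and −1.37, while manual U2OS arrays read −0.12 and 0.20 and automated ones −0.74 and −0.55. By rank within each array the first stood at percentiles 34.6 and 7.47 in K562 and 35.8 to 47.7 in U2OS. The second stood at 34.7 and 18.8 against 43.1 to 49.7, and the third at 31.6 and 23.4 against 46.1 to 57.9. The window at 129.5 to 129.75 Mb, telomeric of PVT1, differed by −1.03 (SE 0.22, limma adjusted p = 0.0143). The last 2 windows, up to 130.5 Mb, differed by 2.15 and 2.05 (SE 0.39 and 0.28; limma adjusted p = 0.00842 and 0.00279). In between, the windows of MYC and PVT1 from 128.5 to 129.25 Mb differed by −0.42 to −0.11 and did not pass.

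At 100 kb, 9 of the 25 windows passed, against 21% of 24160 windows. Of the 9, 3 were earlier in K562 (genome-wide 9%) and 6 later (12%), and in 15 of 25 windows the lines did not overlap (41.6%). The 3 earlier ones were the last of the stretch. At 130.2 to 130.3 Mb K562 read 1.13 and 1.39 with new and old sorting, whereas manual U2OS arrays read −2.01 and −0.87 and automated ones −1.71 and −1.45. This difference, 2.77 (SE 0.35, limma adjusted p = 0.00160), was the largest of the 25 windows. The next 2 windows differed by 1.93 (SE 0.32) and 1.85 (SE 0.33). LOC728724, a name on 2 probes at chr8:130233449-130250314, gave 1.27 and 1.29 in K562 and −2.49, −0.96, −1.90 and −1.36 in U2OS (difference 2.96, limma adjusted p = 0.00555).

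The 6 windows later in K562 fell in 2 places. Centromeric of MYC lay 4 of them: FAM84B's window (−1.51, SE 0.36), 2 adjacent windows from 127.9 to 128.1 Mb (−1.17 and −1.72) and the one at 128.2 to 128.3 Mb (−1.16, SE 0.27). In the last of these K562 read −1.31 and −0.81 and U2OS 0.03, 0.29, 0.09 and 0.02, in the order manual then automated. By rank within each array FAM84B's window stood at percentiles 29.1 and 3.79 in K562 and 28.1 to 49.1 in U2OS, with overlap. The other 2 lay telomeric of PVT1, at 129.4 to 129.6 Mb, with differences of −1.01 (SE 0.28) and −1.03 (SE 0.27). K562 was below 0 in the second of these, at −0.27 and −0.07, while the U2OS arrays still read 0.54 to 1.03. K562 was below 0 in both tested windows from there to 129.9 Mb and above 0 again, at 0.40 and 0.41, in the next window. In that window all 4 U2OS arrays were below 0, at −0.68 to −0.16.

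**Figure D3:**
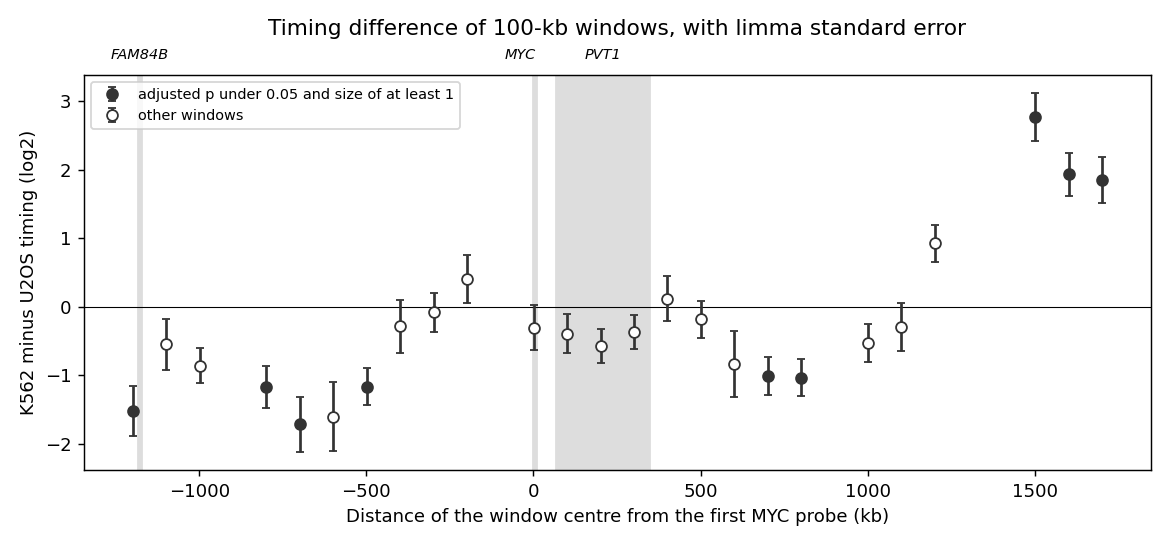
K562 minus U2OS timing (log2) of the 25 tested 100-kb windows, with the limma standard error, against distance from the first MYC probe in kb. Filled points have a limma adjusted p under 0.05 and a size of at least 1. The windows over MYC and PVT1 are open and within 0.58 of 0, and the 3 points at the right end are between 1.85 and 2.77.

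Averaged over segments, the 43 probes from MYC to PVT1 (12 on the array labelled 44k) read 1.30, 0.93 and 1.11 in K562 and 1.56, 1.62, 1.53 and 1.42 in U2OS. The centromeric flank read −1.11, −0.63 and −0.31 in K562 and −0.04, 0.26, −0.22 and −0.21 in U2OS. The telomeric flank read 0.86, 0.71 and 0.83 in K562 and 0.17, 0.43, −0.02 and 0.14 in U2OS. Each of these 3 segments separated the lines without overlap, the first 2 lower in K562 and the telomeric flank higher, and each gave an exact two-sided permutation p of 0.0571, the smallest that 3 against 4 arrays allow.

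The step from the genes down to the telomeric flank averaged 0.31 ± 0.11 (SD, n = 3) over the K562 arrays and 1.35 ± 0.15 (SD, n = 4) over the U2OS arrays (exact permutation p = 0.0571). The step down to the centromeric flank was 1.80 ± 0.54 (SD, n = 3) and 1.59 ± 0.16 (SD, n = 4), with overlapping arrays (exact permutation p = 0.686). Against both flanks together K562 gave a step of 0.995 ± 0.31 (SD, n = 3), U2OS of 1.46 ± 0.15 (SD, n = 4), and the lines differed by −0.47 (exact permutation p = 0.114). The locus mean, taken over the 7 testable windows of 250 kb, was 0.19 ± 0.14 (SD, n = 3) over the K562 arrays. It was 0.38 ± 0.18 (SD, n = 4) over the U2OS arrays, a gap of −0.18 (exact permutation p = 0.229). This mean leaves out the 5 windows with too few probes on the array labelled 44k, among them all from 129.25 to 130.25 Mb. Window differences of opposite sign were thus averaged in a locus mean that did not separate the lines. In all, 24 values per array of the locus, of PVT1 and of chromosome 8 were tested in this way, summed signal included. Adjusted over the 24 by Benjamini-Hochberg, the permutation p was 0.0980 for each value at the smallest p, 0.183 for the step against both flanks, 0.716 for the centromeric step and 0.289 for the mean timing.

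Handling of U2OS was compared within the line, 2 automated against 2 manual arrays. Of the 25 windows of 100 kb, 1 passed (limma adjusted p under 0.05), against 8.24% of 24191 windows and 1.93% earlier on the automated arrays. It was the FAM84B window at 127.5 to 127.6 Mb. The automated arrays averaged −0.24 ± 0.02 (SD, n = 2) there and the manual arrays −1.14 ± 0.14 (SD, n = 2), and the difference was 0.89 (SE 0.23, limma adjusted p = 0.0458). Its 9 probes did not move alike. The second FAM84B probe read −1.93 and −1.67 on manual and 1.86 and 1.03 on automated arrays. The next probe, at 127571895, read −1.46 and 0.11 against 1.76 and 1.81. The first FAM84B probe went the other way, with −0.41 and −1.66 against −1.69 and −1.12. Differences of the 25 windows ran from −1.03 to 0.89. With the background corrected by normexp 14 windows passed, and without background correction 11 did. Without manual 1 or manual 2 the count was 7 or 6, and without either automated array 0. Each of these fits leaves an arm of 1 array, which is assumed to vary like the other arm. Both manual arrays shared a slide and the automated arrays were each on their own, so handling and slide cannot be told apart. With the replicate number as a block 2 windows passed.

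The summed signal of the channels followed another pattern. It is the log2 of the mean of both channels, each relative to its own array median, so it tracks how much labelled DNA hybridised, early and late together. The DNA was amplified before labelling, so the sum is no direct copy number. As a check, ABL1, which K562 carries in extra copies together with BCR, read 2.48, 2.31 and 1.88 in K562 and −0.05, −0.35, 0.40 and 0.60 in U2OS (difference 2.07, SE 0.28, limma adjusted p = 0.00892). BCR gave a difference of 1.05 (limma adjusted p = 0.0283). That call was lost in 7 of 15 other settings, among them 6 of the fits without 1 array, at adjusted p up to 0.265. ABL1 kept its direction in all 14 other settings and its call in 13, with a limma adjusted p of 0.0538 on the probes shared by both designs. CDKN2A, deleted in K562, read −2.82, −1.93 and −1.01 in K562 and −0.67 to −1.03 in U2OS (difference −1.05, limma adjusted p = 0.111). Without the array labelled 44k it passed, at −1.51 (limma adjusted p = 0.0362). It was −0.60 without the new-sorting array (limma adjusted p = 0.284), −0.65 with normexp (0.142) and −0.35 without background correction (0.281).

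Over the MYC and PVT1 locus the summed signal was higher in U2OS than in K562. The locus mean, again over the 7 testable windows of 250 kb, read 0.09, 0.06 and 0.12 on the new-sorting, old-sorting and 44k-labelled K562 arrays. On the U2OS arrays it read 0.84 and 0.83 (manual) and 0.97 and 0.92 (automated). The lines were far apart beside their own spread, 0.09 ± 0.03 (SD, n = 3) against 0.89 ± 0.07 (SD, n = 4). The difference of −0.80 gave an exact two-sided permutation p of 0.0571, the smallest possible, and 0.0980 adjusted over the 24 values. It kept its direction in all 18 other settings, at −0.87 to −0.48.

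All 7 testable windows of 250 kb passed and were lower in K562, by −0.93 to −0.69 (limma adjusted p = 0.00131 to 0.0219). Across the genome 30.4% of windows passed and 12% passed as lower in K562. The lines did not overlap in any of the 7, against 38.7% of windows with no overlap genome-wide. At 100 kb 14 of 25 windows passed, all lower in K562, against 20.1% of windows and 9.48% lower in K562. In 21 of 25 the lines did not overlap (45.6% genome-wide). The median difference was −0.74 over the locus windows of 250 kb and 0.07 over all windows.

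The lower level in K562 ran along the whole stretch, where timing differences changed sign. The window with the largest timing difference, 130.2 to 130.3 Mb, had a summed-signal difference of −0.87 (SE 0.23, limma adjusted p = 0.0263). At 128.4 to 128.5 Mb, where timing differed by −0.08 (SE 0.29), summed signal differed by −1.09 (SE 0.19, limma adjusted p = 0.00545). Across all 8913 windows of 250 kb, the timing and the summed-signal differences had a Pearson's r of 0.01, given as a description since neighbouring windows share probes' surroundings and all come from the same 7 arrays. Within single arrays timing and summed signal correlated at −0.01 to 0.30.

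**Figure D4:**
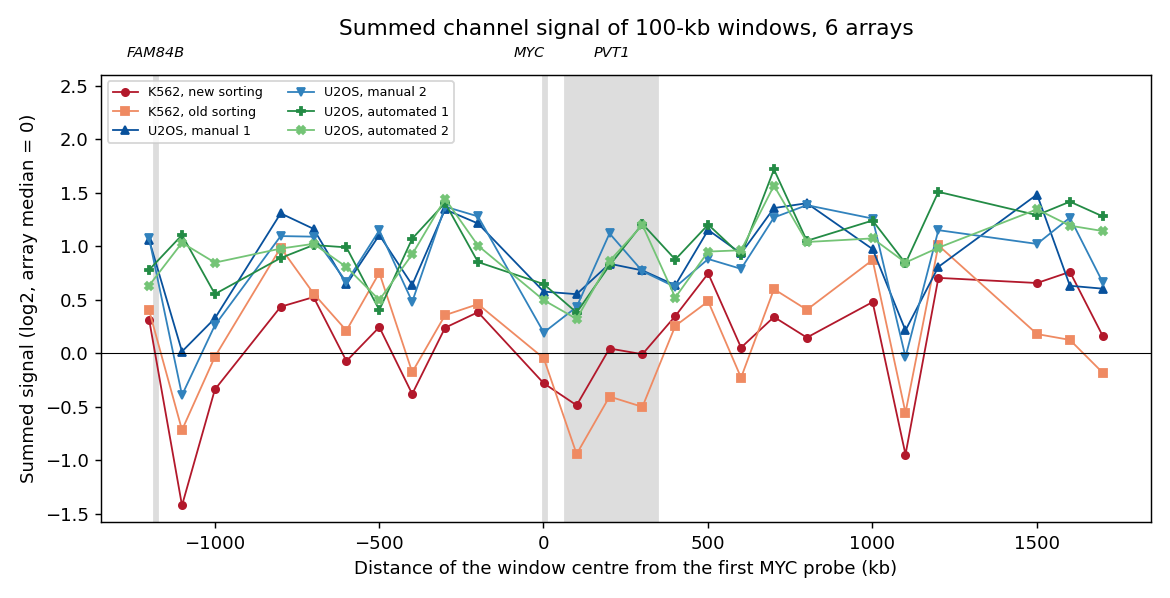
Summed signal of 100-kb windows (log2, array median at 0) against distance from the first MYC probe in kb, for the 2 K562 and 4 U2OS arrays of the larger design. In 21 of the 25 windows both K562 arrays lie below all 4 U2OS arrays.

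Among the genes, PVT1 carried the widest gap in summed signal and MYC a narrow one. PVT1 read −0.07, −0.54 and 0.56 in K562 and 0.76, 0.80, 0.95 and 0.95 in U2OS. All K562 arrays were below all U2OS arrays, as for 26.8% of all genes with no overlap, although the K562 values spanned over 1 log2 unit. The value of the array labelled 44k averages 7 PVT1 probes and the others average 37, so this span also compares different probe sets. The difference of −0.88 (SE 0.27) missed the threshold over all genes (limma adjusted p = 0.0733), where 9.29% of genes passed. Without the array labelled 44k it was −1.17 (SE 0.23) and passed (limma adjusted p = 0.0370), where 5.52% of genes did. It also passed with centring on the mean (−0.96, limma adjusted p = 0.0456) and on probes of both designs (−0.99, limma adjusted p = 0.0424). It was −0.60 with normexp and −0.47 without background correction. MYC read −0.44, 0.24 and −0.32 in K562 and 0.19, −0.29, 0.45 and 0.31 in U2OS, with overlap (difference −0.34, SE 0.26, limma adjusted p = 0.426). That difference was −0.55 without the old-sorting array, −0.21 without the new-sorting array and −0.22 without background correction.

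FAM84B was below the array median in both lines, at −0.99, −0.62 and −0.96 in K562 and −0.56, −0.36, −0.58 and −0.89 in U2OS (difference −0.26, SE 0.21, limma adjusted p = 0.463). GSDMC was above it, at 0.56, 1.39 and 1.098 in K562 and 1.28, 0.87, 1.22 and 1.16 in U2OS (difference −0.12, SE 0.24, limma adjusted p = 0.796). The high old-sorting value of GSDMC rested on a single probe at 6.11, which read 1.78 to 2.35 on the other 6 arrays. Of the 4 genes 0 passed for summed signal, and at an unadjusted limma p under 0.05 PVT1 alone did, against 28.1% of all genes.

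The gap was wider over the stretch than in the mean of the rest of the long arm. Over the rest of the long arm K562 averaged 0.10 ± 0.08 (SD, n = 3) and U2OS 0.40 ± 0.07 (SD, n = 4). On the short arm the order was the reverse, with K562 at 0.10 ± 0.08 (SD, n = 3) and U2OS at −0.35 ± 0.13 (SD, n = 4). The stretch stood above the rest of its arm by 0.04, 0.01 and 0.00 in K562. In U2OS it did so by 0.47 and 0.34 (manual) and 0.67 and 0.57 (automated). This excess, 0.02 ± 0.02 (SD, n = 3) against 0.51 ± 0.14 (SD, n = 4), separated the lines at the smallest exact permutation p, 0.0571 (0.0980 adjusted over the 24 values). The flanks shared it. In U2OS the centromeric flank read 0.98 ± 0.04, the MYC to PVT1 segment 0.78 ± 0.09 and the telomeric flank 0.997 ± 0.13 (SD, n = 4). In K562 they read 0.18 ± 0.11, −0.14 ± 0.38 and 0.31 ± 0.05 (SD, n = 3).

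**Figure D5:**
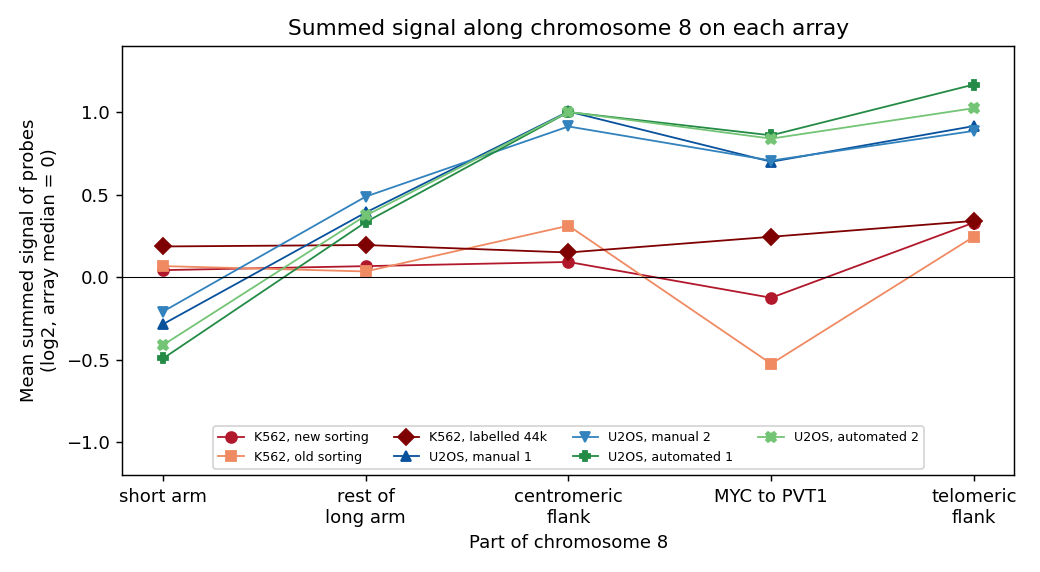
Mean summed signal of probes (log2, array median at 0) in 5 parts of chromosome 8 on each of the 7 arrays, with lines joining the values of an array. The U2OS arrays climb from −0.49 to −0.21 on the short arm to 0.70 to 1.17 in the locus, while the K562 arrays stay between −0.53 and 0.34.

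The other 14 names in the stretch on the larger design were transcript or locus identifiers, and the array labelled 44k names some of the same probes by symbol. By gene ID the RefSeq gene table used here gives CASC8 for LOC727677 and LINC00977 for LOC728724. Of the 14 names, 3 passed for timing by the same call, against 11.7% of 24656 genes. ENST00000519319, with 6 probes at chr8:127869298-128001927, read −2.23 and −1.76 in K562 and −0.43, −0.11, −0.99 and −0.93 in U2OS (difference −1.38, limma adjusted p = 0.0487). ENST00000523151, with 19 probes at chr8:130366054-130585625, of which 7 lie beyond the end of the stretch, read 1.51 and 1.19 in K562 and −0.59, 0.00, −0.86 and −0.63 in U2OS (difference 1.87, limma adjusted p = 0.0125). The array labelled 44k gives 3 of these probes the symbol CCDC26, a long noncoding RNA gene, and there they read 1.53, 1.28 and 1.23. The third name was LOC728724, above. One of its probes is LINC00977 on the array labelled 44k, where it read 1.11. All 4 of these K562 probes thus read above 0 on that array too, where 2.22% of locus probes were well above background in red. Centromeric of MYC, the array labelled 44k gave CASC21 −0.47 and −0.11 at its 2 probes and CASC8 0.82 at 1 probe. LINC00824, telomeric of PVT1, read 0.01 there at 1 probe.

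MYC acts as a pair with MAX, in a network of partner and rival factors. Of 10 network genes measured on all 7 arrays, 0 passed as earlier and 1 passed as later in K562, against 7.05% and 7.91% of all genes. The one that passed was MXD3, with 1 probe on the larger design, a MAX partner that represses MYC targets. It read 0.97, 0.86 and −0.19 in K562 and 1.45, 1.70, 2.05 and 3.10 in U2OS (difference −1.53, SE 0.45, limma adjusted p = 0.0437). Without the array labelled 44k, 0 of 12 network genes passed and MXD3 gave −1.16 (limma adjusted p = 0.174). MAX was early on all arrays, at 1.33 to 2.25 in K562 and 1.92 to 2.39 in U2OS (difference −0.29, SE 0.32, limma adjusted p = 0.603). MYCN, a MYC relative best known from neuroblastoma, read −0.14, −0.27 and 0.70 in K562 and −0.12 to −1.02 in U2OS (difference 0.72, SE 0.35, limma adjusted p = 0.212). The median difference over the 10 genes was −0.26, against −0.18 over all genes.

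Genes on other chromosomes with the most similar timing were ranked by the root-mean-square difference over the 6 arrays of the larger design, among 9126 genes with at least 3 probes. Nearest to PVT1 were MAP3K3 (0.0411, chromosome 17), COL17A1 (0.0894, chromosome 10) and STAU1 (0.0929, chromosome 20). Nearest to MYC were NANS (0.195, chromosome 9), RACGAP1 (0.217, chromosome 12) and YARS (0.229, chromosome 1). NANS read −0.22 with old sorting and 1.41 with new sorting. The ranking used these same arrays, so likeness to MYC on any of them follows from it.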

How the data were processed

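Arrays were grouped by their titles, and the 4 genes, the stretch and the gene lists were chosen with earlier results of these data known. Per the file headers, Agilent Feature Extraction 11.5.1.1 wrote the deposited values (the submitters' processing notes name version 9.1), with probe positions on hg19. The log10 ratio of late over early signal and the processed intensity of each channel are, per the file headers, background-subtracted, detrended and dye-normalized, with dim values replaced by surrogates. The deposited log10 ratio of some probes is 0, and this did not need surrogates in both channels. On the array labelled 44k, 3 locus probes had a ratio of 0 while 0 had a surrogate in green. There was no dye swap.

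Timing was minus the log10 ratio turned to log2 and centred on the median probe of chromosomes 1 to 22 and X, without loess. The summed signal used the processed intensity. Control spots and spots the software marked as outliers or saturated were left out, and 0 locus probes were so marked. Windows of 250 kb (7 arrays) and 100 kb (6 arrays) needed 3 probes on every array. Lines were compared with limma 3.58.1 in R 4.3.3 on all windows or all gene names, with Benjamini-Hochberg adjusted p under 0.05 and, for timing, a difference of at least 1. A value per array was tested by exact permutation of 3 against 4 arrays, two-sided. Steps were tested on simulated data. The number of arrays limits the precision.

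Named were the 4 genes, other names in the stretch, MYCN, MAX and called genes of the MAX network, ABL1, BCR and CDKN2A, and the 3 genes most like MYC or PVT1. FAM84B was matched to LRATD2 as a synonym, and both LOC names of the stretch by gene ID, in a RefSeq gene table. CDKN2B, also on the list, had no value. Same-numbered manual and automated arrays did not deviate together (r = −0.01 across windows).

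Other settings were the background correction (also normexp with offset 50), loess, spot and dim-probe filters, centring, scaling to the same median absolute deviation (MAD), window size, median and probe minimum, the mean of log2 channels, a replicate block, the adjusted p alone, and leaving out each array. Added after seeing the data were probes on both designs, 1 probe per window, log2 of the processed signals, probes with a ratio set to 0 left out, and 1 value per slide.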

Additional observations from a re-analysis of the deposited data

Results flagged for a closer look

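The window at 130.25 to 130.5 Mb of chromosome 8 stood out because its early against late contrast ran opposite ways in the 2 lines. K562 was above 0 on all 3 arrays and U2OS below 0 on all 4, with a tested difference of 1.99 (limma adjusted p = 0.000279). Among 25 values checked for a sample far from the rest of the 4 U2OS arrays, 1 was found, and chance gives about 1 in 20. The summed signal of the centromeric flank was 0.91 on the manual 2 array, while the other 3 arrays read 0.999 to 1.003.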

How the results depend on the processing

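Each of the 7 main results was run under several other settings, giving 130 pairs of a result and a setting. Of these, 101 stayed close to the reported value and 29 moved. The cause of a move was not tested. The results that are counts of windows or genes have no direction to turn. Among the others, the locus mean timing kept its sign at −0.26 to −0.10 and the locus mean summed signal at −0.87 to −0.48. The step from genes to flanks did so at −0.78 to −0.18. The number of 250-kb timing windows passed, 1 of 7 as reported, was 2 with loess, with centring on the mean, with scaling to the same MAD and with 1 probe per window, 2 of 6 without probes whose ratio was set to 0, 3 with log2 of the processed signals, and 1 to 6 without 1 array (6 of 12 without the array labelled 44k). Windows of 100 kb also meant the 6 arrays of the larger design alone, and there 9 of 25 passed for timing and 14 of 25 for summed signal. The summed-signal windows, 7 of 7 as reported, were 4 of 4 with at least 5 probes and 5 to 10 without 1 array. The locus mean of summed signal, −0.80, was −0.57 with normexp, −0.48 without background correction, −0.87 with centring on the mean and with window medians, and −0.82 to −0.77 without 1 array. The step from genes to flanks, −0.47, was −0.18 at 100 kb on those 6 arrays, −0.78 on probes of both designs and −0.65 to −0.36 without 1 array. The locus mean timing was −0.23 to −0.10 without 1 array. Of the 4 genes 1, FAM84B, passed without probes whose ratio was set to 0, and 0 to 1 without 1 array. The handling count of 1 was 14 with normexp, 11 without background correction, 3 with loess, 7 of 15 windows without dim probes, 0 with MAD scaling and with window medians, 2 with the replicate block and 0 to 7 without 1 array: 7 and 6 without manual 1 and manual 2, and 0 without either automated array. The uncalled summed-signal difference of GSDMC changed sign, to 0.00015 with normexp, 0.018 without background correction and 0.35 on probes of both designs, and it was −0.30 to 0.11 without 1 array (0.11 without the new-sorting array).

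No locus value comparing the lines could be had without dim probes, since the red channel of the array labelled 44k left no window or gene of the locus. The slide as a random block could not be fitted, because the 7 arrays lay on 6 slides.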
